A study of Mus musculus with 4 samples.

Results

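Kinesins are motor proteins that use ATP to walk along microtubules or to take them apart at their ends. Mitotic kinesins build the spindle, move chromosomes and drive cytokinesis, and dividing cells make most of them shortly before division. Transport kinesins carry vesicles, mitochondria and ciliary components, with several members used mainly in neurons, and a further group acts on microtubule growth, cilia or signaling. The kinesin motor genes were taken as every gene of the expression matrix whose symbol is *Kif* with a number and at most 1 letter a, b or c, or *Kifc* with a digit, which gave 41 of the 23924 genes. Members were chosen by symbol, with no expression value. The family and its contrast were selected with TG and WT values of these libraries known, those of *Kif26b* and *Kif21b* among them, so the comparisons are descriptions of these libraries and not independent evidence. By textbook function 13 were placed among the mitotic kinesins, 15 among the transport kinesins and 13 among the others. The kinesin-7 gene *Cenpe* and the *Kifc1* copy *Kifc5b* have symbols outside the rule.

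RNA-seq libraries, 2 WT and 2 TG, were made from male tail tip fibroblasts (TTF) of the C57BL/6J-TgBAC8-2087 line. The WT cells came from +/+ animals and the TG cells from Tg2087/+ littermates, which carry an *Xic* sequence with *Xist* in an autosome. Cells of both genotypes were immortalized with SV40 large T, which left them tetraploid, and the age of the animals is not given in the sources used here. It is not stated whether both libraries of a genotype were from different animals or cultures, so p-values measure the spread between these libraries, which may be technical.

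The deposited values are FPKM, fragments scaled to gene length and to the reads of the library. The libraries held between 9465712 and 14639946 reads, worked out from the steps of the FPKM values. *Xist* was listed at 0 and 0.108 FPKM in WT and at 2.31 and 2.28 FPKM in TG. The summed FPKM of 8 fibroblast markers lay between 3920.4 and 4342 in WT and between 3677 and 3777 in TG, with *Col1a1* and *Pdgfrb* lower in TG at an adjusted p under 0.05 by the limma test described below. That of 5 smooth muscle markers lay between 8652 and 8914 in WT and between 4058 and 4742 in TG, with *Acta2* and *Cnn1* lower. Of 4 skeletal muscle markers *Myod1*, *Myog* and *Ckm* were listed at 0 throughout and *Acta1* was lower in TG, with sums of 9.75 to 11.1 in WT and 5.07 to 5.21 in TG. Keratinocyte markers (*Krt5*, *Krt14* and *Krt1* at 0) summed to between 1.92 and 3.15 FPKM and leukocyte markers (*Ptprc*, *Adgre1* and *Cd3e* at 0) to between 5.12 and 12.1 FPKM over all libraries, with overlapping genotypes. Endothelial markers summed to 0.174 to 0.567 FPKM in WT and 0.0360 to 0.126 in TG, Schwann cell markers to 0.0545 to 0.0714 and 0.463 to 0.689, and melanocyte markers to 0.504 to 0.660 and 2.04 to 2.25. In bulk RNA, fewer cells of a type and less RNA per cell cannot be told apart.

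The promoters of 4 members are shown because they belong to the members with the 2 highest log2 fold changes in TG (*Kif18a* and *Kif20b*), to the paralog of the first (*Kif18b*) and to the member with the largest fall (*Kif26b*). The sequences are RefSeq windows on GRCm38.p6, the assembly of mm10, from 250 bases before to 50 bases after a start site of the promoter table, read 5′ to 3′ along the strand of the gene. That site is the outermost start of the gene for *Kif18a* and *Kif26b* and lies 10 and 23 bases inside it for *Kif18b* and *Kif20b*. Over all members it lay up to 19559 bases inside. Capitals mark TTTGAA, the core of the cell cycle element known as CHR, and CCAAT, the box bound by NF-Y, on either strand.
Kif18a promoter, chr2:109280488-109280787, plus strand: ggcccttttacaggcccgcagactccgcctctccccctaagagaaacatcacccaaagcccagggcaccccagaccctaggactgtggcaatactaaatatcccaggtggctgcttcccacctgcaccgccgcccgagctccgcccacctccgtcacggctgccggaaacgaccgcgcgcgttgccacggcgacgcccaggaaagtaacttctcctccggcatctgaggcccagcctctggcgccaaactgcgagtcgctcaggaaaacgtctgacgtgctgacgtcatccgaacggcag
Kif18b promoter, chr11:102925075-102925374, minus strand: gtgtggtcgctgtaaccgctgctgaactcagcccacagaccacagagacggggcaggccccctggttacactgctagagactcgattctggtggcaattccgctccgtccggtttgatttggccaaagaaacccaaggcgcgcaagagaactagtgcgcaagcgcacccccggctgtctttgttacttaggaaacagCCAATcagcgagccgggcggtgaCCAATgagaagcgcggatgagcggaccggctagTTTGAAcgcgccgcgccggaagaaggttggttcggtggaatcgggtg
Kif20b promoter, chr19:34922108-34922407, plus strand: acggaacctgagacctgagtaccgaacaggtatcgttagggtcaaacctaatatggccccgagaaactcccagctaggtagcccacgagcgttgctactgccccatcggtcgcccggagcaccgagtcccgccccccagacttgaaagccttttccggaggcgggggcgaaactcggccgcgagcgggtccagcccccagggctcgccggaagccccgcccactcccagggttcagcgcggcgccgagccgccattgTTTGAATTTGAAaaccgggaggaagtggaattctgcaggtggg
Kif26b promoter, chr1:178528875-178529174, plus strand: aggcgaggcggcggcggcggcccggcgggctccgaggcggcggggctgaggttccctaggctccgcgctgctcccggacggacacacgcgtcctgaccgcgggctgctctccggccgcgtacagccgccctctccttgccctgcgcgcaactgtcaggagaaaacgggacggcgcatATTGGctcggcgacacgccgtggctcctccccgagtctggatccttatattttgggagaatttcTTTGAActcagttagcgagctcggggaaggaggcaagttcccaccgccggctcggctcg

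A RefSeq promoter window was at hand for 32 of the 41 members, and both motifs were searched on both strands (TTTGAA or TTCAAA, and CCAAT or ATTGG, whose matches can share bases where they touch). TTTGAA stood in 10 of 12 mitotic kinesin promoters (83.3%), in 1 of 10 transport kinesin genes and in 2 of 10 other genes, against 17.9% of all 32851 windows. CCAAT stood in 8 of the 12 mitotic promoters (66.7%), in 3 of 10 transport genes and in 4 of 10 others, against 37.4% of all windows. Some windows with TTTGAA had a start site far inside the gene: 1547 bases for *Kif14*, 3852 for *Kif2c*, 9798 for *Kif27* and 19559 for *Kif1a*. *Kif20a* and *Kif21b* were among the members without a window. These shares are a description of short letter strings, not of bound sites. *Kif20b* carried TTTGAA as a direct repeat and no CCAAT, and *Kif18b* carried TTTGAA with CCAAT upstream of it 2 times. The *Kif18a* window held neither motif, and that of *Kif26b*, which is not a mitotic motor, held both.

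Genotypes were compared by limma, which fits a linear model per gene and shares variance information between genes, on log2(FPKM + 0.5). The 11524 genes whose mean reached 0.5 FPKM were tested, and p-values were adjusted over all of them by the Benjamini-Hochberg method. Of the kinesins, 30 passed this filter, 12 mitotic, 11 transport and 7 others. A member was counted as lower or higher at an adjusted p under 0.05, and fold changes on this scale understate those of low genes. By this rule 2 kinesins fell in TG, *Kif26b* and *Kif21b*, where 1.54% of all tested genes were lower. No kinesin rose by limma, where 2.59% of all tested genes were higher. At an unadjusted p under 0.05, 3 of the 30 were higher (*Kif18a*, *Kif20b* and *Kif22*), where 12.7% of all tested genes were, and 6 of the 30 differed in either direction, where 19.6% of all tested genes did. With voom, the limma method for counts, run on the reads worked out from FPKM, *Kif18a* and *Kif20b* were called higher, where 3.59% of all tested genes were. Over all tested genes limma called 178 lower and 298 higher, against 203 and 208 after quantile normalization and 508 and 414 with voom. Under the stricter rule of the study (adjusted p under 0.01, log2 fold change at or beyond 1 in either direction) *Kif26b* was the 1 kinesin called lower and 0 were called higher, by limma, beside 0.469% and 0.607% of all tested genes. The study used these thresholds with the package DESeq, so its calls can differ from those of limma given here. Because *Kif26b* and *Kif21b* were known beforehand, nothing is read from their share of the family.

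**Figure D1:**
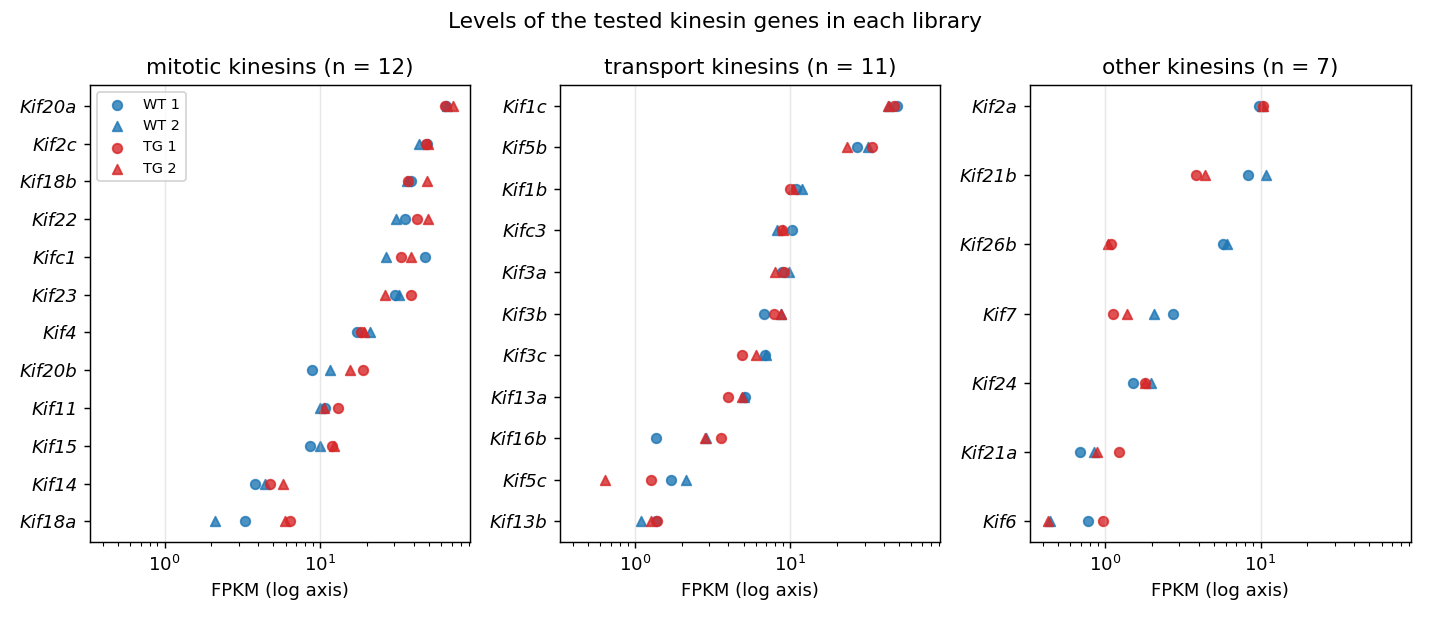
FPKM of the 30 tested kinesin genes on a log axis, in panels for mitotic, transport and other kinesins, with WT libraries in blue and TG libraries in red (circle, replicate 1, and triangle, replicate 2). The WT and TG means lie furthest apart for *Kif26b* (ratio of TG to WT 0.180), then *Kif21b* (0.432), *Kif18a* (2.27), *Kif5c* (0.499) and *Kif7* (0.523).

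*Kif26b* encodes an atypical kinesin linked to polarized cell movement and WNT5A-ROR signaling, whose motor domain is regarded as unable to hydrolyze ATP. It had 5.76 and 6.11 FPKM in the WT libraries and 1.09 and 1.05 FPKM in the TG libraries, from 396 and 649 reads against 94 and 84. The WT libraries lay close together, as did the TG libraries, and the genotypes did not overlap. Its mean went from 5.94 ± 0.243 FPKM (SD, n = 2) to 1.07 ± 0.0283 FPKM (SD, n = 2), a reduction of 82.0%, and the log2 fold change was -2.04 (standard error, SE, 0.28, limma adjusted p = 0.00356). The adjusted p passed 0.05 without WT 2, the deepest library (0.0911), and when all genes above 0 were tested (0.0587). Over all alternatives it ranged from 9.5e-07 to 0.0911. The summed fibroblast, smooth muscle and skeletal muscle markers, given above, were also lower in both TG libraries, and their part in the values of *Kif26b* was not tested. The paralog *Kif26a* had 6 reads in WT 1 and 0 in the others, and 0 reads allow for as many as 3.

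*Kif21b* encodes a kinesin-4 motor that slows microtubule growth. It had 8.25 and 10.8 FPKM in WT against 3.83 and 4.38 in TG, from 714, 1443, 418 and 443 reads, and both TG libraries lay below both WT libraries. Its mean fell from 9.51 ± 1.79 FPKM (SD, n = 2) to 4.10 ± 0.385 FPKM (SD, n = 2), and the log2 fold change was -1.11 (SE 0.24, limma adjusted p = 0.0286). The adjusted p rose above 0.05 without WT 1 (0.0527), without WT 2 (0.261) and without TG 1 (0.0828), with all genes above 0 tested (0.136) and without the variance trend (0.0710), and ranged from 0.00016 to 0.261 over all alternatives. The paralog *Kif21a* was expressed at a far lower level, at 0.687 and 0.855 FPKM in WT against 1.24 and 0.888 in TG (log2 fold change 0.29, limma adjusted p = 0.735). The ratio of *Kif21b* to *Kif21a* in FPKM was 12.0 and 12.6 in WT against 3.10 and 4.93 in TG. A lower ratio in TG was favored by naming *Kif21b* for its fall.

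Both genes lie on Chr 1, to which the paper links the transgenic *Xic* sequence, as do *Kif14*, *Kif1a* and *Kif28*. Whether that sequence had a part in the values of these Chr 1 members was not tested. In GRCm38, *Kif21b* spans 136131390 to 136178001 of Chr 1. *Kif14*, a mitotic kinesin of cytokinesis, begins at 136466301 and ends at 136555938, 0.288 Mb beyond *Kif21b*. Its levels were 3.82 and 4.45 FPKM in WT against 4.75 and 5.77 in TG, so that both TG libraries lay above both WT libraries, in the opposite direction to *Kif21b* (log2 fold change 0.31, SE 0.25, limma adjusted p = 0.545). Between *Kif21b* and *Kif14*, the tested genes *Camsap2*, *Inava* and *Ddx59* had log2 fold changes of -0.14, 0.02 and -0.51 (limma adjusted p = 0.773, 0.979 and 0.243). On the side away from *Kif14*, *Kif21b* lay 0.279 Mb from *Tnnt2*. The paper reports that gene as repressed in the transgenic cells. It places the gene in a cluster of repressed genes whose stated span also takes in *Kif21b*. Expression of the genes on that side was not examined here, and a link between the cluster and the values of *Kif21b* was not tested. *Kif26b* spans 178529125 to 178932857, 42.4 Mb from *Kif21b*. The neuronal cargo motor *Kif1a* had 3 and 18 reads in WT and 7 and 1 in TG, and *Kif28* had 1 read in all, so neither was tested.

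**Figure D2:**
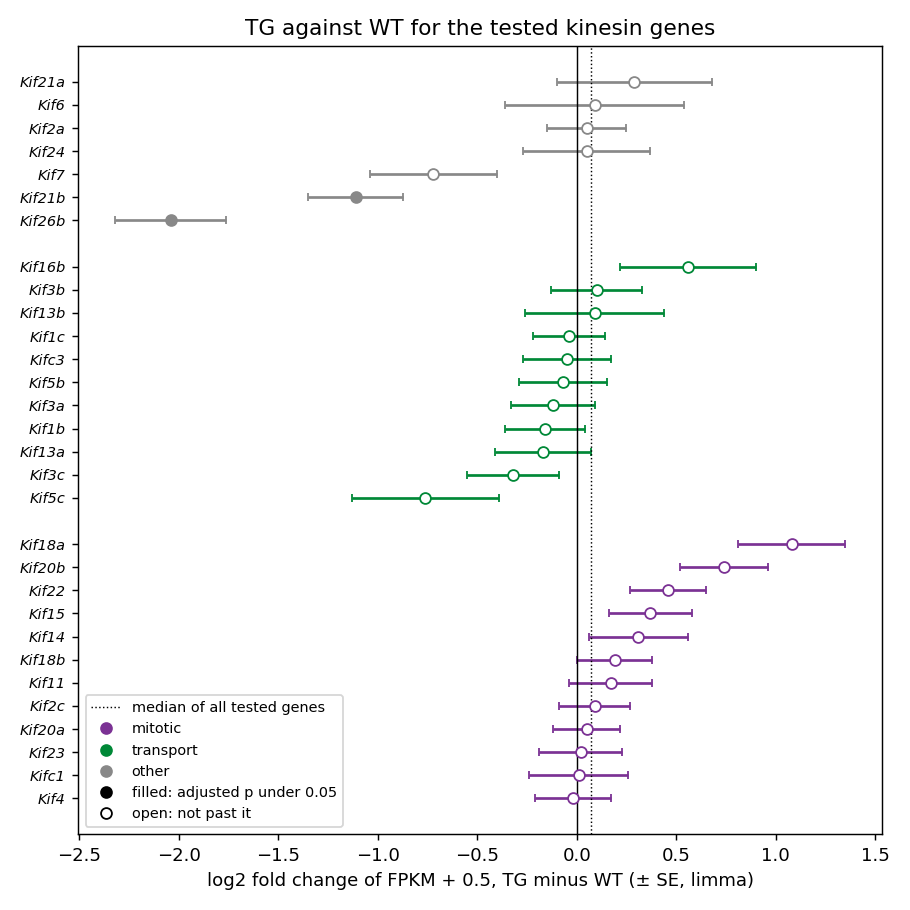
Log2 fold change of FPKM + 0.5, TG minus WT, with its standard error from limma for the 30 tested kinesins, colored by role, with the median of all tested genes (0.071) as a dotted line. The 2 filled points, *Kif26b* at -2.04 and *Kif21b* at -1.11, are past an adjusted p of 0.05. Of the 12 mitotic kinesins 11 lie above 0, beside 6623 of all 11524 tested genes.

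Among mitotic kinesins, *Kif18a* and *Kif20b* had the largest log2 fold changes. *Kif18a*, a kinesin-8 that restrains the swings of chromosomes on the spindle, had 3.28 and 2.12 FPKM in WT against 6.36 and 5.92 in TG, from 100, 100, 244 and 211 reads. Both TG libraries were above both WT libraries, and its log2 fold change was 1.08 (SE 0.27, limma adjusted p = 0.0553). The value missed the threshold by limma and passed it with voom (adjusted p = 0.0165), and over all alternatives ranged up to 0.326. *Kif20b*, a kinesin-6 of late cytokinesis, had 8.83 and 11.5 FPKM in WT against 18.9 and 15.6 in TG, again with no overlap (log2 fold change 0.74, SE 0.22, limma adjusted p = 0.0892). Its adjusted p was 0.0300 with voom and as high as 0.324 without TG 1.

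The closest relatives of these motors are given beside them. Because *Kif18a* and *Kif20b* were named for the largest rises, lower log2 fold changes in their relatives follow from that choice. *Kif18b*, a kinesin-8 and paralog of *Kif18a*, had 38.1 and 36.0 FPKM in WT against 36.7 and 48.6 in TG, and its genotypes overlapped (log2 fold change 0.19, limma adjusted p = 0.654). The ratio of *Kif18b* to *Kif18a* in FPKM was 11.6 and 17.0 in WT and 5.77 and 8.20 in TG. *Kif20a*, the kinesin-6 that brings the chromosomal passenger complex to the central spindle, had the highest mean of all kinesins, with 64.5 and 65.7 FPKM in WT against 63.9 and 71.3 in TG (log2 fold change 0.05, limma adjusted p = 0.908). The ratio of *Kif20a* to *Kif20b* was 7.31 and 5.71 in WT and 3.39 and 4.56 in TG. Both ratios were lower in each TG library than in each WT library, which the choice of *Kif18a* and *Kif20b* favored. With 2 libraries per genotype the smallest two-sided p of an exact permutation test is 0.333. *Kif23*, the third kinesin-6 and a subunit of centralspindlin, had 30.2 and 32.2 FPKM in WT against 38.6 and 26.1 in TG, so that the TG libraries lay on either side of WT.

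Chromosome arm and spindle pole motors were spread around the same range. *Kif22*, a chromokinesin that pushes chromosome arms outward, had 35.1 and 30.9 FPKM in WT against 41.7 and 49.6 in TG (log2 fold change 0.46, SE 0.19, limma adjusted p = 0.203). *Kif15*, a kinesin-12 that helps keep the spindle bipolar, had 8.54 and 9.97 FPKM in WT against 11.9 and 12.2 in TG (log2 fold change 0.37, limma adjusted p = 0.367). Both had all TG libraries above all WT libraries. *Kif11*, the motor that drives spindle poles apart, had 10.8 and 10.0 FPKM in WT against 13.0 and 10.6 in TG, and the chromokinesin *Kif4* 17.3 and 20.9 against 18.4 and 19.0 FPKM. *Kif2c*, which depolymerizes microtubules at centromeres, had 48.7 and 43.3 FPKM in WT against 48.2 and 49.5 in TG (log2 fold change 0.09, limma adjusted p = 0.839). The minus-end motor *Kifc1* had 47.4 and 26.6 FPKM in the WT libraries, the widest gap between WT libraries among mitotic kinesins, and 33.0 and 38.6 FPKM in TG. *Kifc1* has a near-identical copy in *Kifc5b*, so the reads of these genes may have been split or lost. *Kif2b* had 5 reads in TG 1 and 0 elsewhere.

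Of the 12 tested mitotic kinesins, 0 passed an adjusted p of 0.05 by limma, beside 1.54% of all tested genes lower and 2.59% higher. An unadjusted p under 0.05 was seen for 3 (19.6% of all tested genes), and voom called 2 higher (3.59% of all tested genes). Both TG libraries were higher than both WT libraries for 5 of the 12 and lower for 0, where 30.2% of all tested genes were higher in this way and 20.3% lower. The median log2 fold change was 0.179, against 0.071 over all tested genes, and the range was -0.02 to 1.08. The summed FPKM of the class was 317 and 294 in WT and 336 and 353 in TG.

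Transport kinesins had log2 fold changes on both sides of 0. *Kif1c*, a kinesin-3 of vesicle transport in many cell types, had 48.5 and 42.9 FPKM in WT against 46.6 and 42.3 in TG, the highest mean of the class. *Kif5b*, the broadly expressed heavy chain of conventional kinesin, had 27.0 and 31.6 FPKM in WT against 33.3 and 23.2 in TG, with the WT libraries between the TG libraries. *Kif1b*, which carries mitochondria and vesicles, had 10.9 and 11.9 FPKM in WT against 10.0 and 10.4 in TG (log2 fold change -0.16, SE 0.20, limma adjusted p = 0.730). The kinesin-2 subunits *Kif3a* and *Kif3b*, which together drive transport into cilia, had log2 fold changes of -0.12 and 0.10 (limma adjusted p = 0.803 and 0.864), with overlapping genotypes.

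The largest log2 fold changes of the class were those of *Kif5c*, *Kif16b* and *Kif3c*. *Kif5c*, a heavy chain best known from neurons, had 1.71 and 2.13 FPKM in WT against 1.27 and 0.646 in TG, from 109, 210, 102 and 48 reads (log2 fold change -0.76, SE 0.37, limma adjusted p = 0.287). The TG libraries differed from each other by more than the WT libraries did. *Kif3c*, an alternative partner of *Kif3a*, had 6.83 and 6.99 FPKM in WT against 4.91 and 6.02 in TG (log2 fold change -0.32, SE 0.23, limma adjusted p = 0.496). *Kif16b*, a motor of early endosomes, had 1.37 and 2.85 FPKM in WT against 3.59 and 2.83 in TG (log2 fold change 0.56, SE 0.34, limma adjusted p = 0.406), and WT 2 lay within the range of TG. The neuronal heavy chain *Kif5a* did not reach the filter, with 33 reads in each WT library and 2 and 19 in TG. The summed FPKM of 5 neuron markers lay between 31.9 and 34.0 in WT and between 23.1 and 34.1 in TG, and its part in these values was not tested. *Kifc2* (11, 22, 0 and 13 reads) and *Kif17* (0, 0, 5 and 0 reads) were also below the filter.

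Of the 11 tested transport kinesins, 0 passed an adjusted p of 0.05 by limma or voom and 0 had an unadjusted p under 0.05. Over all tested genes limma called 1.54% lower and 2.59% higher, voom called 4.41% and 3.59%, and 19.6% had an unadjusted p under 0.05. Both TG libraries were lower than both WT libraries for 4 of the 11 (*Kif5c*, *Kif3c*, *Kif13a* and *Kif1b*) and higher for 0, beside the same 20.3% and 30.2% of all tested genes. The median log2 fold change was -0.069, and the range was -0.76 to 0.56. Their summed FPKM was 129.6 and 132 in WT and 131 and 118 in TG.

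The median log2 fold change of mitotic kinesins thus exceeded that of transport kinesins by 0.248, without a test. The difference was 0.391 without WT 1, 0.231 without WT 2, 0.364 without TG 1 and 0.277 without TG 2. Taken for each TG library against each WT library, the difference of class medians lay between 0.308 and 0.389. For WT 2 against WT 1 it was -0.143, and for TG 2 against TG 1 it was 0.118. The 4 comparisons of TG with WT share libraries and are not independent. The ratio of summed mitotic to summed transport FPKM was 2.44 and 2.22 in WT and 2.56 and 2.99 in TG.

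**Figure D3:**
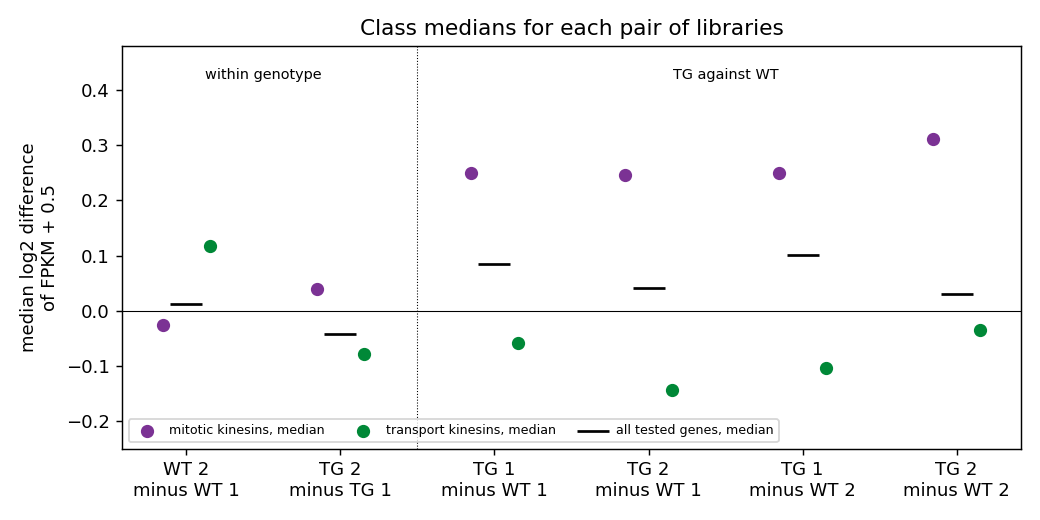
Median log2 difference of FPKM + 0.5 for mitotic kinesins (purple), transport kinesins (green) and all tested genes (black bar), for the 2 pairs of libraries within a genotype and the 4 pairs of a TG with a WT library. In all 4 pairs across genotypes the mitotic median is above that of all tested genes and the transport median below it. The same order holds within a genotype for TG 2 minus TG 1 (0.040, -0.042 for all tested genes and -0.078). It is reversed for WT 2 minus WT 1 (-0.026, 0.012 and 0.118).

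The other kinesins held the 2 members that fell, and 3 of the 7 tested had an unadjusted p under 0.05 (19.6% of all tested genes). Both TG libraries were lower than both WT libraries for 3 of the 7 and higher for 2. Beside these stand 20.3% and 30.2% of all tested genes. *Kif7*, a regulator of Hedgehog signaling at the tip of the cilium, had 2.73 and 2.08 FPKM in WT against 1.13 and 1.38 in TG, from 113, 133, 59 and 67 reads (log2 fold change -0.72, SE 0.32, limma adjusted p = 0.255). Both TG libraries were below both WT libraries. The microtubule depolymerase *Kif2a* had similar levels in all libraries, with 9.79 and 10.2 FPKM in WT against 10.3 and 10.4 in TG (log2 fold change 0.05, limma adjusted p = 0.928). *Kif24*, a depolymerase of the mother centriole, had 1.51 and 1.98 FPKM in WT against 1.80 and 1.82 in TG. *Kif6* stayed under 1 FPKM in all libraries, at 25 and 22 reads in WT and 39 and 16 in TG.

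Members below the filter were *Kif9*, *Kif12*, *Kif19a*, *Kif26a*, *Kif27* and *Kif28* among the others, *Kif1a*, *Kif5a*, *Kif17* and *Kifc2* among transport kinesins, and *Kif2b* among mitotic kinesins. *Kif9*, a motor of motile cilia, had 0 and 2 reads in WT and 11 and 8 in TG. *Kif12* was listed at 0 in all 4 libraries. *Kif27* had 2 and 18 reads in WT and 12 and 11 in TG. The genotypes of *Kif9*, like those of *Kif5a*, did not overlap, and none of the members below the filter was tested.

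Partner genes were examined in 3 lists. Of the spindle and cell cycle partners, 0 of 23 passed an adjusted p of 0.05 by limma and 0 by voom. Over all tested genes limma called 1.54% lower and 2.59% higher, and voom 4.41% and 3.59%. Of the 23 partners, 6 had an unadjusted p under 0.05, beside 19.6% of all tested genes. Both TG libraries were higher for 11 (47.8%, beside 30.2% of all tested genes) and lower for 1, *Incenp*, and the median log2 fold change was 0.190, close to that of the mitotic kinesins. The spindle checkpoint kinase *Bub1* had 9.69 and 9.12 FPKM in WT against 18.5 and 12.4 in TG (log2 fold change 0.66, limma adjusted p = 0.145). *Cenpe*, the kinesin-7 that moves chromosomes to the metaphase plate, had 12.5 and 15.5 FPKM in WT against 25.4 and 15.0 in TG (log2 fold change 0.47, limma adjusted p = 0.349). The proliferation marker *Mki67* had 32.4 and 45.5 FPKM in WT against 42.6 and 34.6 in TG. Whether the share of dividing cells had a part in the values of the mitotic kinesins was not tested.

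Of the kinesin light chains and adaptors, 0 of 15 tested passed by limma or voom, beside the same shares of all tested genes. An unadjusted p under 0.05 was seen for 2 (*Klc3* and *Mapk8ip1*, beside the same 19.6%), and the median log2 fold change was 0.013. The light chain *Klc3* had the largest value, with 5.73 and 3.85 FPKM in WT against 8.21 and 9.57 in TG (log2 fold change 0.85, limma adjusted p = 0.0922). *Klc1*, the most abundant light chain, had 58.3 and 47.7 FPKM in WT against 53.7 and 49.6 in TG. Of 21 tested genes of dynein and dynactin, which move cargo toward the minus end, 1 fell and 0 rose by limma. Over all tested genes 1.54% fell and 2.59% rose in this way. Of the 21 genes, 4 had an unadjusted p under 0.05, beside 19.6% of all tested genes. Voom called 2 lower, *Dync1li1* and *Dync1h1*, beside 4.41% of all tested genes. The gene that fell was *Dync1li1*, a dynein light intermediate chain that links the motor to adaptors, with 66.4 and 79.9 FPKM in WT against 36.8 and 45.2 in TG (log2 fold change -0.83, SE 0.19, limma adjusted p = 0.0377). The median of this list was 0.074.

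**Figure D4:**
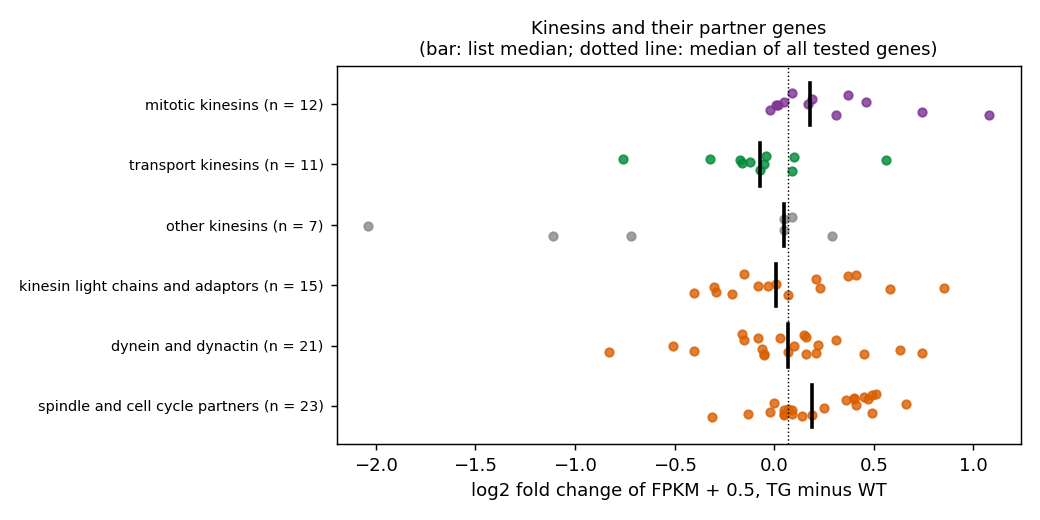
Log2 fold change of FPKM + 0.5, TG minus WT, for each tested member of the kinesin classes and of 3 partner lists, with list medians as black bars and the median of all tested genes (0.071) as a dotted line. The medians of mitotic kinesins (0.179) and of spindle and cell cycle partners (0.190) lie to the right of the dotted line, and that of transport kinesins (-0.069) to the left.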

How the data were processed

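RNA-seq values of 2 WT and 2 TG libraries of TTF were analysed, with groups taken from the sample labels. The deposited values are FPKM, made by the authors with Rsubread (index and alignment, mm10), a count per gene and a conversion of the counts in R. Versions, annotation and the strand setting of the counting are not given in the sources used here. Whole reads per gene were solved from the ratios of FPKM between libraries, scaled by GENCODE M21 exonic lengths. For each gene a length was searched for that made its reads whole. Such a length was found for 100.00% of the 15530 genes above 0. The search selects for this result, so it does not test the counts. The read counts are inferred, and their differences between libraries can hold more than counting error.

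The test was limma 3.58.1 (R 4.3.3) with a trended prior variance on log2(FPKM + 0.5). The members, roles and lists were chosen with earlier results of these data known. By rule, values per library are given for members past an adjusted p of 0.05, for the 5 largest log2 fold changes in each direction and for the 3 highest members of each class, and of the partners for those past the test and *Cenpe*. All other members and partners named with values were picked after their values were seen. Positions are RefSeq gene positions on GRCm38.p6, matched by symbol for 41 of 41 members. Alternatives were pseudocounts of 1 and 0.1, no filter beyond a value above 0, a minimum mean of 1 FPKM, an untrended variance, quantile normalization, upper-quartile scaling, a block for replicate number, omission of each of the 4 libraries, voom on the recovered reads, another assignment of roles, and class medians over members averaging 2 FPKM or more. Protein sequences were not analysed here.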

Additional observations from a re-analysis of the deposited data

How the results depend on the processing

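Scaling moved the class medians together: with upper-quartile scaling, quantile normalization and voom on the recovered reads the median log2 fold change was 0.112, 0.103 and 0.123 for mitotic kinesins and -0.137, -0.139 and -0.136 for transport kinesins, and the difference between them stayed between 0.242 and 0.259. With all genes above 0 the transport median was -0.124. Leaving out each library in turn gave mitotic medians from 0.135 to 0.257, transport medians from -0.169 to -0.033 and differences from 0.231 to 0.391. With 1 library left out, the lone library of its genotype is assumed to vary like the other genotype. With *Kif2a* counted as mitotic and *Kif21a* and *Kif21b* as transport kinesins the difference was 0.239.

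At an adjusted p under 0.05, the number of kinesins that were lower was 2 by limma, 0 with all genes above 0, 1 without the variance trend, 1 with the replicate block, and 0 to 2 with a library left out. With voom 2 were higher. By the thresholds of the study it was 1 by limma, 0 with all genes above 0, 0 without the variance trend, 0 with the replicate block, 2 with voom, and 0 to 1 with a library left out. Over all tested genes, 178 were lower and 298 higher at an adjusted p under 0.05. These counts were 22 and 22 with all genes above 0, 101 and 153 without the variance trend, 64 and 114 with the replicate block, and 508 and 414 with voom, and a library left out gave 22 to 167 and 52 to 300. By the thresholds of the study, 54 were lower and 70 higher, against 1 and 0 with all genes above 0, 6 and 3 without the variance trend, 8 and 12 with the replicate block, 153 and 126 with voom, and 2 to 63 and 9 to 112 with a library left out. The deviations of WT 1 and TG 1 from the means of their genotypes had a correlation of -0.0276. This value cannot show whether libraries of the same number were prepared together, so the block is an alternative only. With the block *Kif21b* was not called (adjusted p = 0.0709 from limma) and *Kif26b* was (0.0242).

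Of 234 values for 18 named members under 13 alternatives, 211 kept their direction and their side of the threshold. Those that turned in direction were *Kif20a* (-0.02 with upper-quartile scaling, -0.07 with quantile normalization, -0.01 with voom), *Kif2a* (-0.02, -0.01 and -0.02 in the same order) and *Kif2c* (-0.02 with quantile normalization). With a library left out the log2 fold change ran from -0.03 to 0.13 for *Kif20a*, from -0.01 to 0.39 for *Kif18b*, from -0.13 to 0.05 for *Kif1c* and from -0.33 to 0.19 for *Kif5b*. The cause of these changes was not tested. With 2 libraries per genotype and under 100 reads in several members, small differences of low kinesins could not be resolved.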
